A study of Homo sapiens with 8 samples.

Results

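The genes described here are those that were well expressed in both of 2 human Ewing sarcoma cell lines, and the measurement is how far the change after RING1B knockdown differed between the lines. Ewing sarcoma is a bone and soft tissue tumour, and A673 and SK-ES1 are established lines that both carry the EWSR1-FLI1 fusion. In each line, cells with a hairpin RNA that targets RING1B (shRING1B) were compared with cells whose hairpin targets GFP and serves as the control (shGFP), so there were 4 groups, each of 2 arrays. A gene was a member if its mean log2 expression under shGFP was above 6 in A673 and also in SK-ES1, so that it could fall in either line. Of 14884 named genes, 5230 (35.1%) met this rule, and 5000 of them are protein-coding. The members were therefore chosen on the shGFP arrays, which also enter each change, and not on the difference between lines. The difference is the SK-ES1 change minus the A673 change, where a change is shRING1B minus shGFP on the log2 scale, and 1 unit is a factor of 2. A positive difference means that the gene ended relatively higher after knockdown in SK-ES1 than in A673.

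RING1B is the catalytic subunit of Polycomb repressive complex 1 (PRC1), a ubiquitin ligase that marks histone H2A and is best known for holding developmental genes silent. PRC1 works beside PRC2, which methylates histone H3, and PRC1 complexes without PRC2 can also sit at active genes. In Ewing sarcoma the fusion protein EWSR1-FLI1 binds GGAA repeats and turns them into enhancers, and the series title ties RING1B to that process.

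The labels do not say how many hairpins against RING1B were used or whether the cells were clones or pools, nor that the arrays of a group came from separate cultures. P-values therefore measure only how far these samples spread, and that spread may be technical. RNF2, which encodes RING1B, was not analysed here, so unequal depletion and unequal response cannot be told apart. Of 10 Ewing sarcoma markers listed, 6 were measured, and CD99 (11.4 to 12.3), NKX2-2, STEAP1, CCND1, BCL11B and JAK1 all had group means above 7.34. EPCAM and KRT5 of epithelium and PECAM1 and KDR of endothelium lay between 3.12 and 4.72, near the array medians of 4.01 to 4.1. Blood and muscle markers were not all low: CD68, a macrophage marker, had group means of 7.13 to 7.58 while CD14 had 3.32 to 3.53, and MYOD1 and MYOG lay between 4.21 and 5.04. DES, desmin of muscle, had 5.27 and 6.08 in A673 (shGFP and shRING1B) and 5.83 and 6.0 in SK-ES1, and its part in the results was not tested. Over the members, arrays of 1 group correlated at 0.9827 to 0.9883, SK-ES1 arrays with different hairpins at 0.9823 to 0.9868, and A673 arrays with different hairpins at 0.9548 to 0.9713.

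Among the 5230 members, 28 (0.535%) differed between the lines at an adjusted p under 0.05 in limma, against 0.786% of all genes tested. The difference was positive for 22 members (0.421%, against 0.625% of all genes) and negative for 6 (0.115%, against 0.161%). The members' share was thus below that of all genes. The 22 positive members had all fallen in A673, with changes from -1.89 to -0.644, while their SK-ES1 changes lay between -0.345 and 0.468. The 6 negative members went opposite ways in the 2 lines, with A673 changes of 0.268 to 0.669 and SK-ES1 changes of -0.651 to -0.267. At an unadjusted p under 0.05, 557 members passed (250 positive, 307 negative), or 10.7% against 13.7% of all genes.

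The calls rest on few arrays. When 1 array of A673 was left out, 14 members were called (shGFP replicate 1), none (shGFP replicate 2), 7 (shRING1B replicate 1) or 9 (shRING1B replicate 2). For SK-ES1 the numbers were 2 (shGFP replicate 1), 3 (shGFP replicate 2) and 0 for either shRING1B array. In the 3 fits that made no call, limma passed 308, 529 and 452 members at an unadjusted p under 0.05. Each of the 28 lost its call in at least 3 of these 8 fits, with adjusted p-values of at most 0.193, and each kept its sign in all 8. DZIP1 and ASS1 stayed called in 5 of the 8 and KIF21A in 4. A trended, robust variance model called 118 members, all 28 among them.

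**Figure D1:**
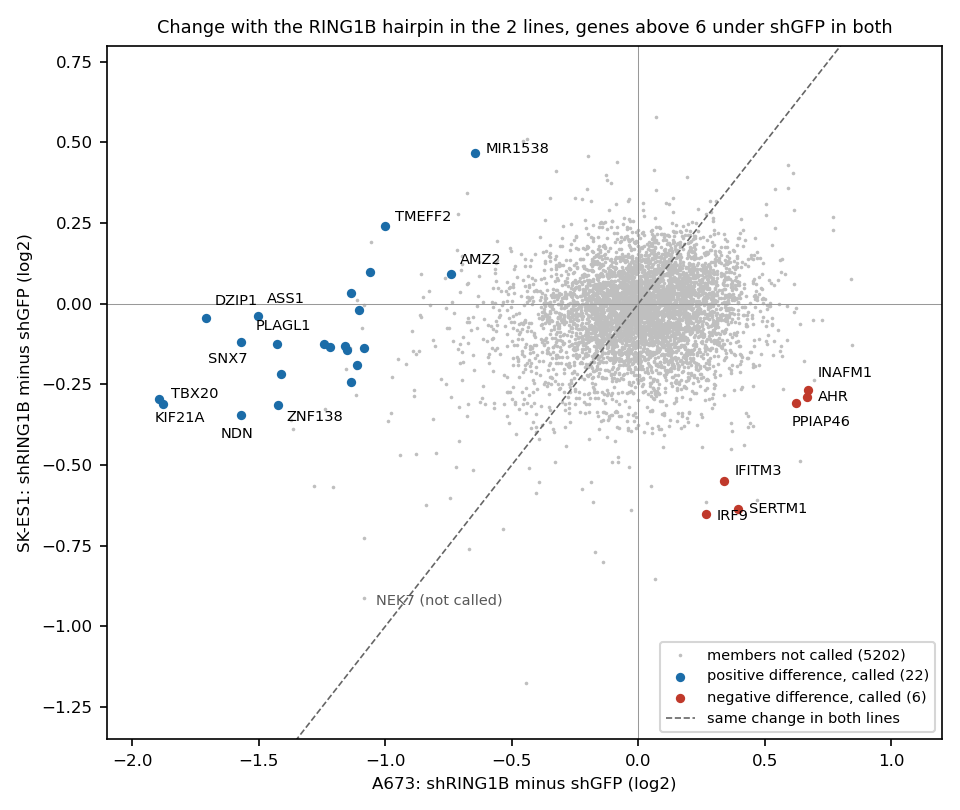
Each point is 1 of the 5230 members, with its log2 change in A673 on the x axis and in SK-ES1 on the y axis, and the dashed line marks an equal change in both lines. The 22 blue points (positive difference) lie at A673 changes of -1.89 to -0.644 and SK-ES1 changes of -0.345 to 0.468, the 6 red points (negative difference) lie at the lower right, and NEK7 lies close to the dashed line.

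The members spread more widely in A673 than in SK-ES1. The standard deviation of the change over members was 0.253 in A673 and 0.136 in SK-ES1, and 35 members had an A673 change of -1 or less against 1 in SK-ES1, IGFBP7, an IGF-binding protein (-1.18, limma adjusted p = 0.321). No member reached 1 in either line. Medians were near 0 in both lines (0.0129 and -0.0212), and 57.4% of members lay below 0 in SK-ES1 against 47.4% in A673. Across the 5230 genes, which are not independent replicates, the 2 changes had a Pearson r of 0.18 and a Spearman rho of 0.139. The median level under shGFP was 7.32 in A673 and 7.28 in SK-ES1 for the positive 22, against 7.36 and 7.34 for all members, and 11 of the 22 began higher in SK-ES1.

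The SK-ES1 values of members called in A673 come from arrays that do not enter the A673 change. Limma called 179 members in A673 (3.42%, against 3.74% of all genes), of which 147 fell (3.04% of all genes fell) and 32 rose (0.705% of all genes rose). The 147 had a median change of -0.708 in A673 and of -0.122 in SK-ES1. Of these, 110 lay below 0 in SK-ES1, where 57.4% of all members did. The 32 had a median of 0.573 in A673 and of -0.00268 in SK-ES1, with 16 above and 16 below 0. The difference was called for 22 of the 147 and for 3 of the 32. Since the A673 change that chose these members is part of the difference, nothing is read from those 2 counts beside the 0.535% of all members.

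The largest positive difference was that of DZIP1, a zinc-finger protein of the centriole and cilium base known for its part in Hedgehog signalling. In A673 its log2 level was 7.62 and 7.96 under shGFP but 6.03 and 6.13 under shRING1B, and in SK-ES1 it was 8.05 and 8.28 against 8.10 and 8.14. The A673 groups were far apart and the SK-ES1 groups overlapped. The difference was 1.66 (standard error 0.2, limma adjusted p = 0.0104). KIF21A, a kinesin motor, stood at 7.29 and 7.49 against 5.33 and 5.66 in A673, and at 7.29 and 7.50 against 7.09 and 7.12 in SK-ES1. It began at the same level in both lines, and its 4 SK-ES1 arrays also ordered by hairpin, with a change of -0.295. Its difference was 1.6 (standard error 0.204, adjusted p = 0.013). Without A673 shGFP replicate 2 or either SK-ES1 shRING1B array neither gene was called (limma adjusted p of at most 0.077 for DZIP1 and 0.0809 for KIF21A), and KIF21A was also lost without SK-ES1 shGFP replicate 1.

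ASS1, argininosuccinate synthase of arginine and urea synthesis, was among the most abundant of these members. It went from 9.0 and 9.18 to 7.46 and 7.71 in A673 and stood between 9.80 and 9.88 on all 4 SK-ES1 arrays. The difference was 1.46 (standard error 0.178, limma adjusted p = 0.0104), and the adjusted p was at most 0.077 with an array left out. HSPA4L, a chaperone of the HSP110 family, fell by 1.14 in A673 and had a change of 0.0341 in SK-ES1, a difference of 1.17. SNX7, an endosomal sorting nexin, fell by 1.57 in A673 against a change of -0.118 in SK-ES1. Its A673 shGFP arrays lay apart, at 6.97 and 7.56, and its difference of 1.45 ranged from 1.16 to 1.75 over the alternatives. Both HSPA4L and SNX7 lost the call in 7 of the 8 fits without an array.

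The called members that fell in A673 include 5 nuclear regulators, grouped here after their values were seen. TBX20, a cardiac T-box factor, stood at 8.23 and 8.92 against 6.66 and 6.73 in A673 and at 7.41 and 7.65 against 7.39 and 7.05 in SK-ES1. Both lines were lower under shRING1B, A673 by more, and the difference of 1.57 had the widest error of the 28 (standard error 0.297, limma adjusted p = 0.0463). PLAGL1, an imprinted zinc-finger factor, fell by 1.43 in A673 and had a change of -0.126 in SK-ES1. NDN, necdin, an imprinted growth suppressor, fell from 5.92 and 6.09 to 4.23 and 4.64 in A673 and stood at 7.62 and 7.80 against 7.35 and 7.38 in SK-ES1. EYA1, a phosphatase and co-activator of homeobox factors, fell by 1.09 in A673 with a change of -0.138 in SK-ES1. ZNF138, a KRAB zinc-finger gene, fell by 1.42 with -0.314 in SK-ES1, and since its family shares sequence the value of the single gene is uncertain. Each of these 5 lost its call in 7 or 8 of the 8 fits without an array.

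The remaining 10 protein-coding members with a positive difference have varied roles. GAL, the neuropeptide galanin, fell from 6.83 and 7.08 to 5.86 and 5.94 in A673 and stood at 6.31 and 6.44 against 6.35 and 6.6 in SK-ES1. TMEFF2, a transmembrane protein with follistatin-like domains, fell by 1.0 in A673 and had a change of 0.242 in SK-ES1, and its difference was 1.25. FERMT1, kindlin-1, an activator of integrins, fell by 1.24 against -0.125. PTGFRN, a membrane partner of tetraspanins, fell by 1.10 against -0.02. CRISPLD1, a secreted protein, SUSD5, a sushi-domain protein, and OSTF1, an SH3-domain protein, fell by 1.15, 1.13 and 1.22 in A673, with SK-ES1 changes of -0.145, -0.243 and -0.135. DENND2C, a Rab activator, PIP4P2, a phosphoinositide phosphatase, and AMZ2, a metalloprotease, fell by 1.16, 1.11 and 0.74, with SK-ES1 changes of -0.13, -0.19 and 0.0909. AMZ2 had the smallest difference among the called, 0.83. All of them lost the call in 6, 7 or 8 of the 8 fits without an array, with adjusted p-values of at most 0.193.

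**Figure D2:**
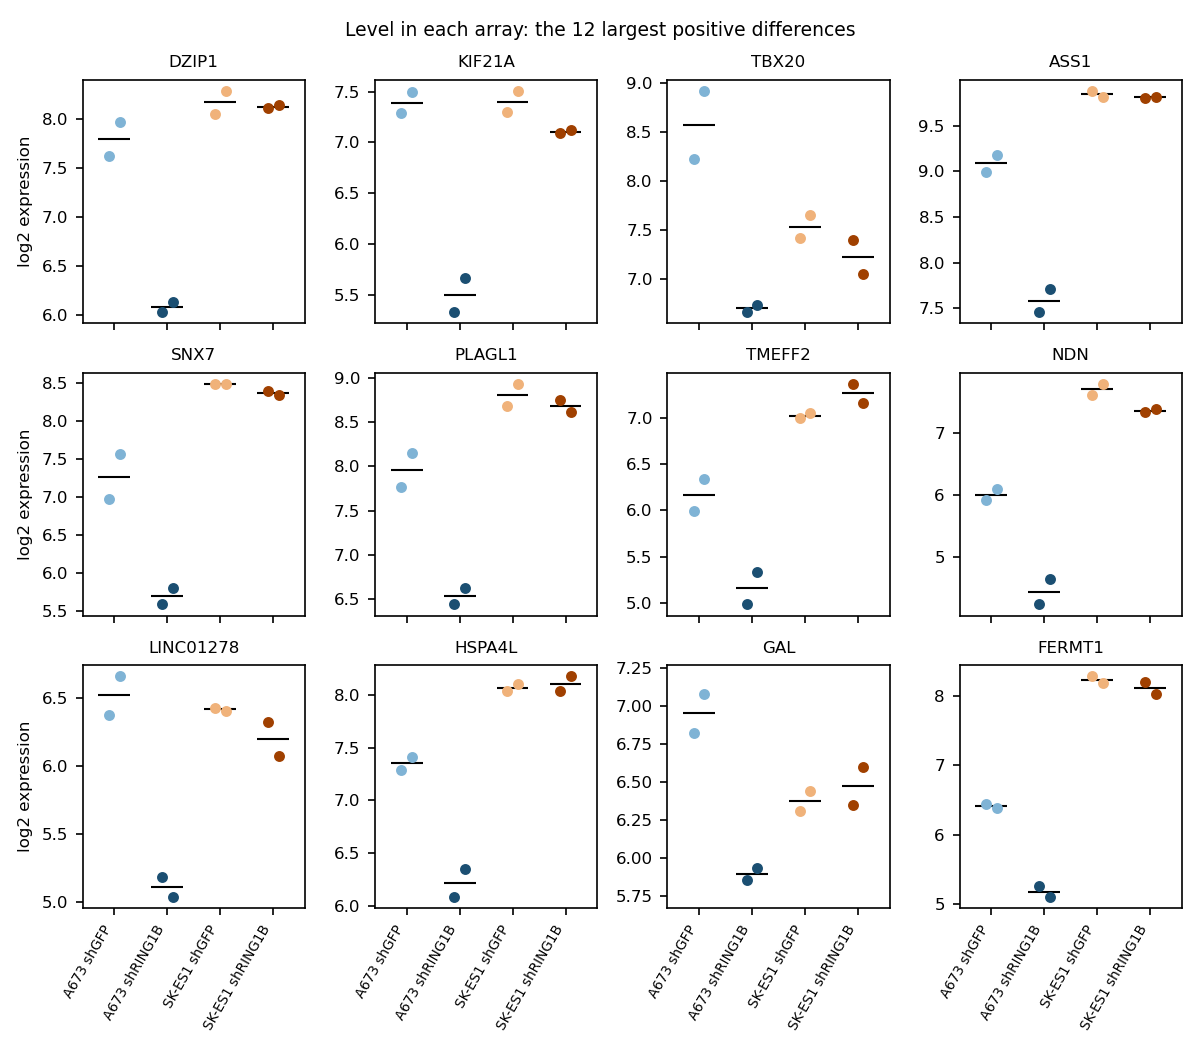
Log2 expression in each array for the 12 largest positive differences, LINC01278 included, with 1 point per array, a bar at the mean of each group of 2 and a y axis of its own for each gene. In every panel the 2 A673 shRING1B points lie below the 2 A673 shGFP points, while the SK-ES1 group means lie closer together.

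On the A673 shGFP side, replicate 2 was the higher array for 19 of the 22 positive members, against 47.9% of all members, and without that array none of the 22 was called. Its part in the result was not tested beyond that. The 22 kept a positive difference without it. On the A673 shRING1B side, replicate 2 was the higher array for 3659 of the 5230 members (70%) and for 17 of the 22. In the SK-ES1 groups these shares of members were 49.9% (shGFP) and 48.1% (shRING1B). The median difference over members was -0.0344 (-0.0707 without A673 shRING1B replicate 1, -0.000597 without A673 shRING1B replicate 2). What this shift between the A673 shRING1B arrays did to the results was not tested beyond leaving out arrays and changing the normalization.

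Of the 28, 3 were not protein-coding, and these were named after their values were seen. MIR1538, a microRNA gene, had changes of -0.644 in A673 and 0.468 in SK-ES1. It stood at 7.28 and 7.29 against 6.56 and 6.73 in A673 and at 6.66 and 6.64 against 7.07 and 7.16 in SK-ES1, so that no groups overlapped within a line. Its difference was 1.11 (standard error 0.16, limma adjusted p = 0.0183), and the call held without A673 shRING1B replicate 1 or 2 and was lost in the other 6 fits (up to 0.108). Whole-transcript labelling does not tell a mature microRNA from its host transcript. LINC01278, a long non-coding RNA, fell by 1.41 in A673 with a change of -0.217 in SK-ES1. PPIAP46, a pseudogene of the cyclophilin PPIA, had a change of 0.621 in A673 and of -0.308 in SK-ES1, and its probes may also read other copies of that family.

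The 6 negative differences were smaller, between -1.03 and -0.889, and for each of them the 4 arrays of either line separated by hairpin, upwards in A673 and downwards in SK-ES1. The call itself favours such separation, and its share over all members was not counted, so nothing is read from it. In A673 alone limma called 3 of the 6 (AHR, INAFM1 and PPIAP46), and in SK-ES1 alone none (10 genes in all, 0.0672%, were called there). SERTM1, a small serine-rich transmembrane protein, stood at 9.47 and 9.39 against 9.89 and 9.76 in A673 and at 9.44 and 9.36 against 8.89 and 8.64 in SK-ES1. It began level in the 2 lines and ended about 1 unit apart, a difference of -1.03 (standard error 0.176, limma adjusted p = 0.0361). AHR, the ligand-activated aryl hydrocarbon receptor, went from 6.88 and 7.05 to 7.58 and 7.69 in A673 and from 6.47 and 6.54 to 6.30 and 6.14 in SK-ES1. Its difference was -0.955 (adjusted p = 0.0414). INAFM1, a small membrane protein, had a change of 0.669 in A673 and of -0.267 in SK-ES1. These calls were less stable than those of DZIP1 or ASS1: each of the 6 was lost in all 8 fits without an array, with adjusted p-values of up to 0.189, and INAFM1, PPIAP46 and IRF9 were also lost with cyclic loess.

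**Figure D3:**
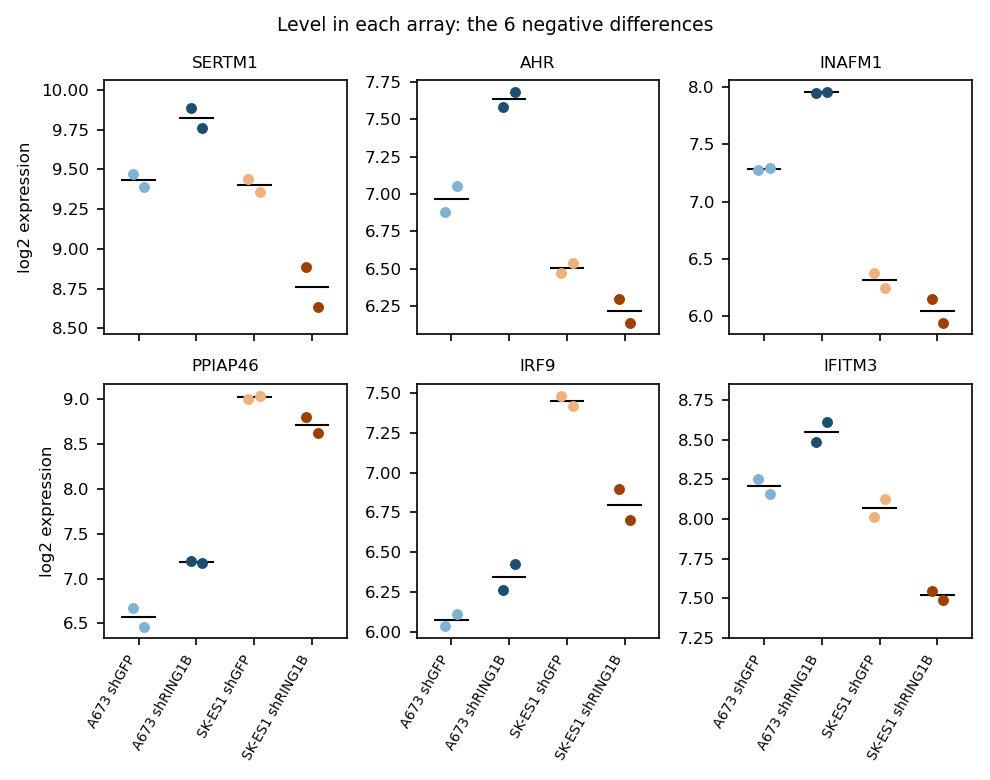
Log2 expression in each array for the 6 members with a negative difference, with 1 point per array, a bar at the mean of each group of 2 and a y axis of its own for each gene. In every panel the shRING1B points lie above the shGFP points in A673 and below them in SK-ES1.

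The other 2 negative members belong to the interferon response. IRF9 is the DNA-binding subunit of ISGF3, the factor through which type I interferon acts, and IFITM3 is an antiviral membrane protein that interferon induces. IRF9 stood at 6.04 and 6.11 against 6.26 and 6.42 in A673 and at 7.48 and 7.42 against 6.90 and 6.70 in SK-ES1. Its difference was -0.919 (standard error 0.172, limma adjusted p = 0.045). IFITM3 stood at 8.25 and 8.16 against 8.48 and 8.61 in A673 and at 8.01 and 8.13 against 7.55 and 7.49 in SK-ES1. Its level was thus alike in both lines under shGFP, and its difference was -0.889 (standard error 0.162, adjusted p = 0.0431). IFITM genes are near-identical neighbours, so the reading of 1 of them may include the others. Of 34 interferon genes measured, 11 were members, and the others had a shGFP mean of 6 or less in at least 1 line.

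All 11 interferon members had a difference below 0, with a median of -0.412, against -0.0344 for all members, of which 2928 lay below 0. Besides the 2 called, RIGI, a sensor of viral RNA, had -0.921 (limma adjusted p = 0.06) and IFITM1 had -0.614 (0.113). RIGI had a change of 0.0658 in A673 and -0.855 in SK-ES1, and ISG15, a ubiquitin-like modifier, 0.154 and -0.363. SP110 departed from this, with changes of -0.537 and -0.699 and a difference of -0.162. The list's median change was 0.0658 in A673 and -0.364 in SK-ES1. Over 15 alternatives the median difference lay between -0.561 and -0.367, with 10 or 11 of the 11 below 0, but neither IRF9 nor IFITM3 was called in any fit without an array. The lower level of interferon genes in SK-ES1 shRING1B arrays was known when the list was chosen, so its direction is not independent evidence. B2M and TAPBP, the members among MHC class I genes, had differences of -0.49 and -0.539 (adjusted p = 0.293 and 0.243).

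**Figure D4:**
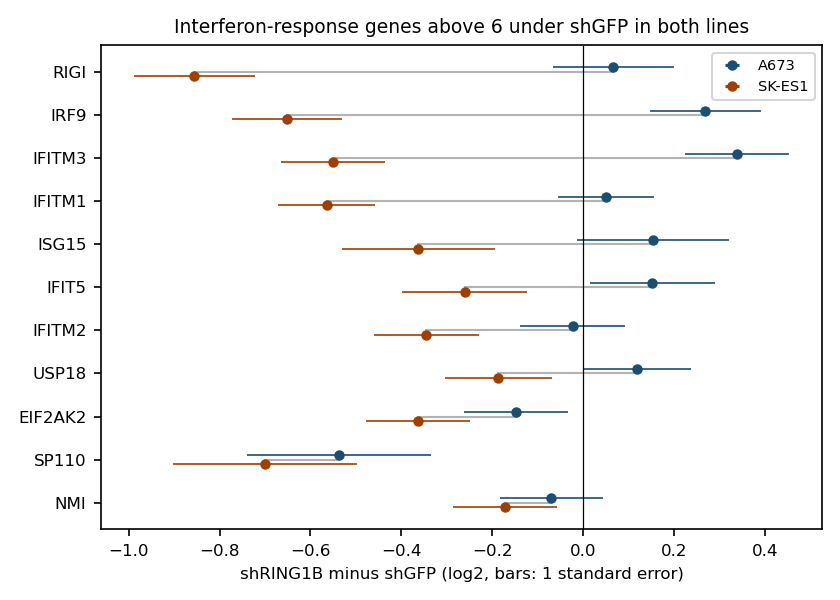
Log2 change with the RING1B hairpin in A673 (blue) and SK-ES1 (brown) for the 11 interferon genes that were members, with bars of 1 standard error from limma, ordered by their difference. The SK-ES1 point lies left of the A673 point for every gene, farthest apart for RIGI, IRF9 and IFITM3 and close together for NMI and SP110.

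The interferon-stimulated response element (ISRE), the sequence that ISGF3 binds, was searched for in the 250 bases before the start of each gene in RefSeq's promoters (GRCh38.p14), as GAAA, any 2 bases and GAAA on either strand. It was found in 3.02% of 35116 promoters and in 94 of the 4338 members with a promoter (2.17%). Of the 9 interferon members with a promoter in the table, 5 held it: IFIT5, IFITM1, IFITM3, ISG15 and NMI. The list was made of interferon genes, so this share says nothing about the line difference. Among the 5 called negative members with a promoter, IFITM3 alone held it. The promoters below are shown because the first 2 genes share the letters and the third, the other called interferon gene, does not hold them in this window. Capitals mark the match, and the sequences run 5′ to 3′ on the gene's strand, at chr11:320861-321110 (minus strand), chr11:313790-314039 (plus) and chr14:24161015-24161264 (plus).
IFITM3: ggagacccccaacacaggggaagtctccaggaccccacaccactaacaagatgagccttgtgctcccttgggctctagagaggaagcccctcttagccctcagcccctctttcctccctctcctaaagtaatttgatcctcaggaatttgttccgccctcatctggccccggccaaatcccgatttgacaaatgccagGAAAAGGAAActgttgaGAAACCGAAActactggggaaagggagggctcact
IFITM1: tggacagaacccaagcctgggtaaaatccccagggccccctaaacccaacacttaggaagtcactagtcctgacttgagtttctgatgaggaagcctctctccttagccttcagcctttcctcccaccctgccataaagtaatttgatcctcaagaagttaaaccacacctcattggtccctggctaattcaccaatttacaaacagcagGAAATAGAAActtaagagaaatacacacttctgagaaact
IRF9: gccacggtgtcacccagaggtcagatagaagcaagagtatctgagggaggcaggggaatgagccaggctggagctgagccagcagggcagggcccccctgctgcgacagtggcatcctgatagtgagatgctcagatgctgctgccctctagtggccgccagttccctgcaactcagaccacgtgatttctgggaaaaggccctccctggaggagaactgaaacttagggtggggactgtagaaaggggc
IFITM3 holds 2 matches, 52 and 35 bases before the start, and IFITM1 holds 1, 40 bases before it. None of the 16 positive members with a promoter in the table held the ISRE, and none held GGAAGGAA on either strand. The latter is found in 3.06% of all promoters and in 3.11% of members with a promoter. With shares this low, none among 16 is an ordinary count, and nothing is read from it. The median GC content of those 16 promoters was 69.2%, against 65.2% for the 4338 members with a promoter.

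Of 17 members among PRC1 components and 10 among PRC2 components none was called by limma. At an unadjusted p under 0.05, 2 and 1 passed, close to the 10.7% of all members. SCML2, a PRC1-associated protein, had changes of -0.557 in A673 and 0.136 in SK-ES1 and a difference of 0.693 (adjusted p = 0.126). MGA, the other PRC1 pass, went the other way, with changes of 0.358 and 0.0219 and a difference of -0.336 (limma adjusted p = 0.36). MTF2, a PRC2 accessory subunit, had -0.524 and 0.0391 (difference 0.563, adjusted p = 0.156). EZH2, the PRC2 methyltransferase, had a difference of -0.251 with a 95% interval of -0.583 to 0.0818. With the trended, robust variance model SCML2 and MTF2 were called (adjusted p = 0.0208 and 0.0298). The median differences were 0.0243 for PRC1 and 0.0421 for PRC2, and over the alternatives both medians took either sign.

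Developmental factors outside the HOX clusters, the classic targets of Polycomb, were mostly not members: 23 of 91 measured passed the level of 6 in both lines. EYA1 and TBX20 were called with a positive difference (0.421% of all members were), and 5 passed at an unadjusted p under 0.05 (10.7% of all members did). The median of the 23 was -0.0107, with either sign over the alternatives. PAX7, a muscle precursor factor and a known EWSR1-FLI1 target, had changes of 0.844 in A673 and -0.129 in SK-ES1, and a difference of -0.973 (limma adjusted p = 0.0618). It was called with the trended variance model (0.00691) and with dim genes left out (0.0337). Of 9 HOX members none was called and 2 passed unadjusted, HOXB9 with a difference of 0.752 (0.0885) and HOXD11 with -0.633 (0.21), in opposite directions.

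EWSR1-FLI1 activated targets were well represented, with 20 of 26 measured genes as members. None was called and 4 passed unadjusted, against 10.7% of all members. Of the 20, 14 lay below 0, against 2928 of all 5230 members. The median of the 20 was -0.133 (-0.0786 without SK-ES1 shRING1B replicate 2). GSTM4, a glutathione transferase, had changes of 0.571 and -0.266 (difference -0.837, limma adjusted p = 0.126), and VRK1, a kinase, 0.267 and -0.134 (-0.401, 0.299). KIT, a receptor kinase, went the other way, with changes of -0.567 and -0.144 (0.423, 0.283). Only 4 repressed and mesenchymal genes were members, and VIM, vimentin, had the smallest p (difference -0.43, adjusted p = 0.267).

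Cholesterol synthesis and stress genes had more members above 0 than below and none that limma called. Among all 5230 members 2302 lay above 0, with a median of -0.0344, and 10.7% passed unadjusted. Of 15 cholesterol synthesis members 11 lay above 0, with a median of 0.2, and 3 passed unadjusted. The median was 0.355 without SK-ES1 shGFP replicate 1 and 0.108, with 9 above 0, without SK-ES1 shGFP replicate 2. SQLE, squalene epoxidase, had changes of -0.563 in A673 and 0.124 in SK-ES1 (difference 0.688, adjusted p = 0.113), and it ends a stretch of chromosome 8 that was delimited for its lower levels in A673 shRING1B arrays. HMGCS1, HMG-CoA synthase, had changes of -0.554 and 0.0471 (0.601, 0.218). Of 17 members of the unfolded protein and amino acid stress list 15 lay above 0, with a median of 0.156 and 4 unadjusted passes. ATF4, its central factor, had a difference of 0.374, PSAT1, of serine synthesis, 0.539 and DDIT4, a stress-induced inhibitor of mTORC1, 0.68 (adjusted p = 0.339, 0.279 and 0.361). DDIT4 rests on single arrays, with 0.318 without A673 shGFP replicate 2 and 1.04 without A673 shGFP replicate 1. With arrays centred on the median 10 of the 17 lay above 0, and without A673 shRING1B replicate 1 it was 9. Leaving out A673 shGFP replicate 1 gave this list a median of 0.273. Leaving out the other A673 shGFP array gave 0.081, A673 shRING1B replicate 1 gave 0.0916 and SK-ES1 shRING1B replicate 2 gave 0.0883.

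The cell-cycle and ribosome lists had no called member. Among all 5230 members 2928 had a difference below 0 and 10.7% passed unadjusted. The 13 members of the list of G1 regulators hold no CDK inhibitor. Of these, 11 had a difference below 0 (median -0.156, 4 unadjusted passes over the 13): the E2F transcription factors E2F1, E2F2, E2F3, E2F7 and E2F8, the retinoblastoma family RB1, RBL1 and RBL2, the kinases CDK2 and CDK4, and cyclin D1 (CCND1). E2F8 had changes of 0.521 and -0.0076 (difference -0.529, limma adjusted p = 0.271) and RBL1 0.358 and -0.0135 (-0.371, 0.335). CCNE1, cyclin E1, had changes of -1.24 in A673 and -0.326 in SK-ES1 and a difference of 0.914 (limma adjusted p = 0.126). CCNE2, cyclin E2, was the other above 0, at 0.382 (0.306). DNA replication had 22 members with a median of -0.0802 and 3 unadjusted passes, but without A673 shGFP replicate 2 the median was 0.0243 with 13 of the 22 above 0. CDT1, a licensing factor, was among the 3 passes and had changes of 0.526 and 0.0632. The others were CCNE1 and CCNE2, which also count among the 4 passes of the G1 list. Mitosis had 26 members with a median of 0.0321 and 1 pass, and ribosomal proteins 42 with a median of 0.0288 and 2 passes. In the microtubule list, 16 members had a median of 0.00101. These 3 medians took either sign over the alternatives. The microtubule list held KIF21A, which was called, and KIF3C, another kinesin, at -0.563 (limma adjusted p = 0.23).

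None of the other lists had a called member in limma, and 10.7% of all members passed at an unadjusted p under 0.05. The counts at an unadjusted p under 0.05 were 2 of 13 for hypoxia and glycolysis, 2 of 15 for receptor kinases and the IGF axis, 1 of 9 for cell junctions, 1 of 6 for TGF-beta and 1 of 5 for neuronal genes. They were 0 of 11 for the Wnt pathway, 0 of 8 for NRF2, 0 of 6 for p53 targets and 0 of 1 for NF-kB. TJP1, the tight junction scaffold ZO-1, was closest among junction genes, with changes of -0.139 in A673 and -0.802 in SK-ES1 (difference -0.663, adjusted p = 0.17).

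Some called members lie in stretches of neighbouring genes, though only DENND2C and PTGFRN share a stretch. Stretches of genes that were lower in A673 shRING1B arrays had been delimited earlier from these same arrays, so a positive difference there is no independent finding. They held 121 members, of which 105 lay above 0 with a median of 0.359, against a median of -0.039 for the other 5109. Of the 28 called, 6 lay in them: SNX7 between EVI5 and NTNG1 and DENND2C and PTGFRN between DRAM2 and GDAP2 on chromosome 1, TBX20 between NUP42 and MPLKIP and ZNF138 between ZNF736 and ZNF92 on chromosome 7, and PIP4P2 between ZBTB10 and SQLE on chromosome 8. The other 22 called members, DZIP1, KIF21A and ASS1 among them, lay outside, among the 5109. ZNF138 was the only member between ZNF736 and ZNF92, and a further stretch, ZNF506 to ZNF254 on chromosome 19, held no member.

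Some members, picked out once the values were known, fell in both lines. NEK7, a mitotic kinase that also takes part in the NLRP3 inflammasome, was the 1 member that limma called in SK-ES1. It stood at 6.69 and 6.91 against 5.64 and 5.79 in A673 and at 6.83 and 6.84 against 5.94 and 5.91 in SK-ES1. It fell by 1.09 and 0.91, and the difference was 0.174 with a 95% interval of -0.205 to 0.553. REEP3, an endoplasmic reticulum protein, had changes of -0.653 and -0.515 and MBOAT1, a lysophospholipid acyltransferase, of -0.67 and -0.761. Both differences had intervals that hold 0 (-0.194 to 0.47 and -0.529 to 0.347), too wide to show equal changes. Neither was called in SK-ES1 (limma adjusted p = 0.209 and 0.149). SELENBP1 and AADAT, picked by the same rule, fell more in A673 (-1.28 against -0.565 and -0.879 against -0.465). Their differences had intervals above 0 (0.329 to 1.11 and 0.0172 to 0.811).

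At the edge of the rule, NDN (6.01 in A673), ZNF138 (6.07 in SK-ES1) and IRF9 (6.07 in A673) were members with a shGFP mean just above 6. OSMR, the oncostatin M receptor, and PCDHB14, a protocadherin, lay just below it in SK-ES1, at 5.99 and 5.98, and had differences of -1.14 and -1.17. BACE2, an aspartyl protease, lay at 5.88 in SK-ES1 with a difference of 1.5. In size, 28 members differed by 1 or more either way, and 19 of these were called. Among the 9 that were not, GLIPR1 had the most negative value of all members, -1.13 (95% interval -1.66 to -0.593, limma adjusted p = 0.0671).

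**Figure D5:**
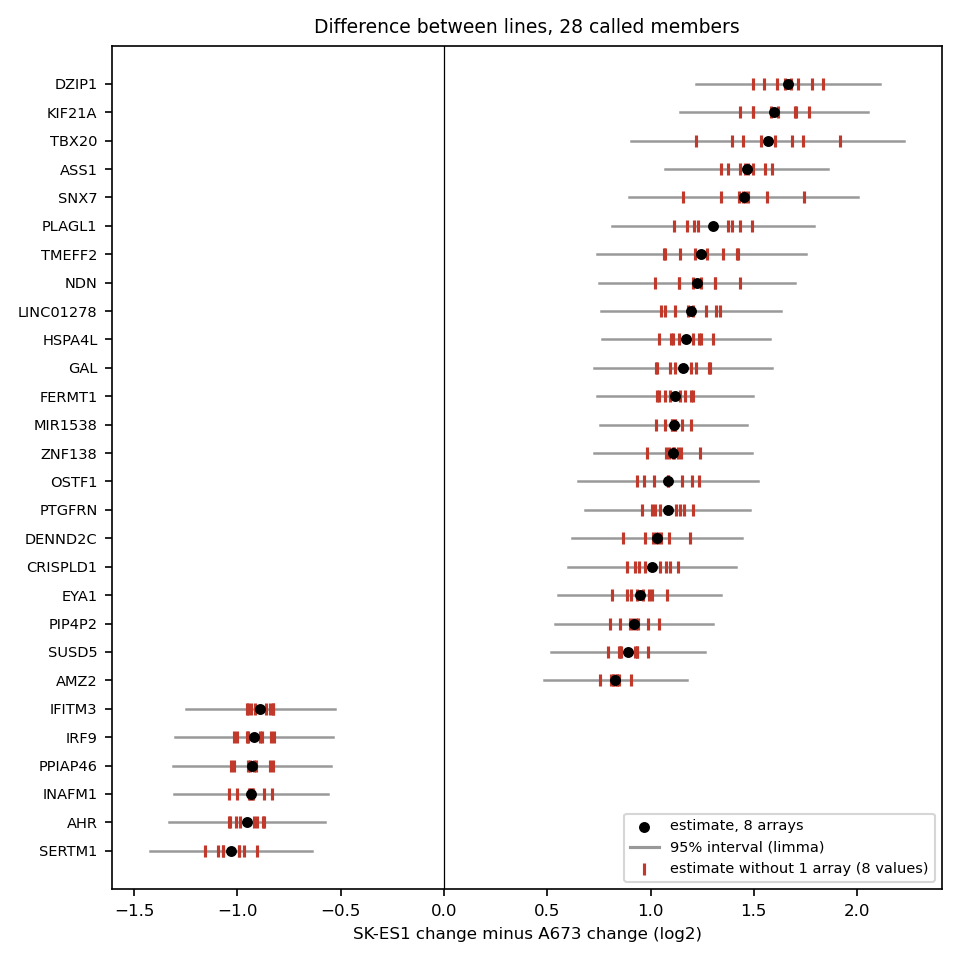
For each of the 28 called members (y axis) the x axis gives the SK-ES1 change minus the A673 change on the log2 scale, as a black point with its 95% interval from limma, and red ticks give the estimate without each of the 8 arrays in turn. Every interval and every tick lies on the same side of 0 as its point, with the widest spread for TBX20 (1.22 to 1.92) and SNX7. The intervals leave out 0 by the way the 28 were called.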

How the data were processed

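The deposited values are log2 expression values made by the authors, 1 per probe set and array, for 48144 probe sets. RMA and limma were used upstream, per the submitters' processing notes, without versions. RMA corrects background and gives arrays the same distribution of probe intensities before probe sets are summarized, which limits any shift common to most probe sets. The deposited array medians still ran from 4.01 (A673 shRING1B replicate 2) to 4.10 (SK-ES1 shRING1B replicate 1). A shift among the members alone can remain. The array's annotation build is not given in the sources used here, and signal over background was not measured. The number of arrays limits the precision.

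Probe sets were named through the platform's gene table: 16098 had 1 symbol, 0 several, and 32046 were unnamed here. For each of 14884 genes the probe set that was brightest on average was used, and each of the 28 called genes had 1 named probe set. A model with 4 group means was fitted to all genes with limma 3.58.1 (R 4.3.3), with 4 residual and 6 prior degrees of freedom, and two-sided p-values were adjusted by Benjamini-Hochberg over all 14884 genes. A gene is called at an adjusted p under 0.05, and every adjusted p in the text comes from limma. The fit was tested on simulated data with known differences, drawn with independent noise of the spread that the fit itself estimated. Of 100 genes given a difference of 1, 91% were called, with 9 false calls among the 14884 genes. Shifts of whole arrays were not simulated, so this does not test for them.

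Members and lists were chosen with earlier results of these data known. The text names called protein-coding members whose arrays do not overlap between hairpins in the line of the larger change (the 12 largest each way), called members with opposite signs (up to 6), and the 4 smallest p-values in each list at most; the remaining called members were named after their values were seen. Replicate numbers follow accession order and do not pair arrays. Lists have no set test. They overlap, so that a gene such as PAX7, KIT or CCNE1 counts in more than 1 list. Alternatives were the variance model, array weights, normalization, a filter on dim genes, the probe set rule, the member rule and leaving out each array.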

Additional observations from a re-analysis of the deposited data

Results flagged for a closer look

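The change with the RING1B hairpin differed between the lines, by limma's test of the difference itself, for 28 members, and their values (SK-ES1 change minus A673 change, log2) are collected here. Positive differences were 1.66 for DZIP1, 1.6 for KIF21A, 1.57 for TBX20, 1.46 for ASS1, 1.45 for SNX7, 1.30 for PLAGL1, 1.25 for TMEFF2 and 1.23 for NDN. They were 1.19 for LINC01278, 1.17 for HSPA4L, 1.16 for GAL, 1.12 for FERMT1, 1.11 for MIR1538 and for ZNF138, 1.08 for OSTF1 and for PTGFRN, 1.03 for DENND2C and 1.01 for CRISPLD1. Below 1 were EYA1 at 0.948, PIP4P2 at 0.921, SUSD5 at 0.891 and AMZ2 at 0.83. Negative differences were -1.03 for SERTM1, -0.955 for AHR, -0.936 for INAFM1, -0.93 for PPIAP46, -0.919 for IRF9 and -0.889 for IFITM3. Groups of 2 arrays are too small to test for a sample far from the others.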

How the results depend on the processing

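The count of 28 members (22 positive, 6 negative) was 118 (78 and 40) with a trended, robust variance model, all 28 among them. It was 50 (37 and 13) for members above 5 and 12 (10 and 2) above 7. With each array left out in turn it ranged from 0 to 14, the positive count from 0 to 13 and the negative count from 0 to 1. The negative count was 3 with cyclic loess and 12 with dim genes left out. With members chosen by the mean of all 4 arrays of a line, 23 were called and 22 of these were among the 28. With array weights, quantile normalization repeated, arrays centred on the median and the mean of all probe sets, counts were 27, 26, 23 and 28. Over 15 alternatives each, no called member changed sign, and calls were kept in 209 of 420 combinations of gene and alternative. The fits without an array have fewer samples, and the lone array of a group is assumed to vary like the other groups. Of 82 named members that were not called, RIGI, PAX7, HOXB9, IFITM1, SQLE, SCML2, CCNE1, GSTM4 and MTF2 became called with the trended model, RIGI and PAX7 also with dim genes left out, and 5 others changed sign. With each array left out in turn, SRXN1 ranged from -0.146 to 0.534 (below 0 without A673 shRING1B replicate 1), FOXO1 from -0.00387 to 0.182 (SK-ES1 shGFP replicate 2), STMN3 from -0.0439 to 0.162 (A673 shGFP replicate 1; -0.0235 without SK-ES1 shGFP replicate 2), RELA from -0.253 to 0.177 (above 0 without A673 or SK-ES1 shRING1B replicate 2) and SNAI2 from -0.248 to 0.332 (below 0 without A673 shRING1B replicate 1, A673 shGFP replicate 2 or SK-ES1 shRING1B replicate 1). SNAI2 was at -0.00523 with arrays centred on the median. The cause was not tested. No paired analysis was possible because the labels give no shared replicate numbers.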

Other observations

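AHR was followed to genes it is known to induce, a choice made after its value was seen. Of CYP1A1, CYP1B1, TIPARP, AHRR, NQO1 and ALDH3A1, TIPARP was measured, with a change of 0.356 in A673 and -0.0425 in SK-ES1 and a difference of -0.399 (limma adjusted p = 0.333). ARNT, the partner of AHR, had changes of -0.128 and -0.00793.

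Of the 89 genes outside the level rule that were called for a line difference, 71 were positive and 18 negative. In 31 of them the shGFP mean was at or below 6 in SK-ES1 alone, in 15 in A673 alone and in 43 in both lines.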
